A study of Arabidopsis thaliana with 10 samples.

Results

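COR27, AT4G33980, GI, AT5G52660 and PDC2 are 5 Arabidopsis genes picked by name as cold-, clock- and fermentation-related transcripts in roots with altered SDI1, and each was read by 1 probe set among the 22197 with values. The probe sets were 249174_at for COR27 (AT5G42900), 253322_at for AT4G33980, 264211_at for GI (AT1G22770), 248328_at for AT5G52660 and 248138_at for PDC2 (AT5G54960). The genes were chosen with earlier results of these arrays known. Which comparison led to the choice is not stated. From their description as altered by SDI1 it was taken to be SDI1 overexpression against wild type. Values and calls from that comparison are therefore given as a description, and no test is read from them. If the knockout comparisons had a part in the choice too, their p-values are no independent evidence either. The chosen 5 proved unequal. COR27, AT4G33980, GI and PDC2 read higher in the overexpression lines and in the double knockout than in wild type. AT5G52660 lay within 0.27 log2 units over all 10 arrays. COR27 was under array background in wild type and on most knockout arrays. In the main fit none of the 5 passed the adjusted threshold in the knockout at full sulfate. GI passed it only with the knockout averaged over both sulfate levels.

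The study compared roots of the wild type Columbia (Col), of sdi1sdi2 double knockout lines 1 and 4 (KO) and of SDI1 overexpression lines 6 and 12 (OX) on ATH1 short-oligonucleotide arrays, 2 arrays in each of 5 groups. Plants of all groups were 10 days old and grew on agar plates with sucrose in days of 16 h light and 8 h dark. Full sulfate (+S) was 1500 µM and low sulfate (-S) was 15 µM, and OX was grown at +S only. In KO and OX each array of a group was a different line, and for Col it is not stated whether the 2 arrays came from separate cultures. The hour of harvest, the promoter behind the overexpression and the number of plants per sample are not given in the sources used here. SDI1 and SDI2 are genes of sulfur-deficient plants that lower the synthesis of glucosinolates, the sulfur-rich defence compounds of this family.

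The plant circadian clock is a network of morning and evening transcription regulators that repress and activate each other over the day, and it times the response to cold. GI encodes a large protein of the evening part of the clock that links day length to flowering. COR27 is a cold-regulated gene whose transcript also follows light and the clock, and its small protein acts on clock genes, flowering and freezing tolerance. PDC2 encodes a pyruvate decarboxylase, which makes acetaldehyde from pyruvate in the first step of ethanol fermentation. AT4G33980 and AT5G52660 carry no symbol or function in the annotation used here.

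Values are log2 expression values, differences are log2 fold differences ± SE of a linear model over all 10 arrays (limma), and adjusted p-values are limma's with Benjamini-Hochberg adjustment over 22197 probe sets. With 2 arrays a group, an exact permutation test could not fall below p = 0.333, so the tests rest on a spread pooled over the groups. They measure the spread between these arrays, which may be partly technical in Col. The number of arrays limits the precision. Fewer cells of a type and less RNA per cell cannot be told apart in such bulk samples.

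Arrays of the same group correlated at 0.9904 to 0.9959. SDI2, the targeted gene with a listed probe set, read 1.83 and 1.57 in Col +S, 5.65 and 5.47 in Col -S, -0.35 and -1.16 in KO +S (lines 1 and 4), 0.31 and -1.52 in KO -S (lines 1 and 4), and 1.52 and 1.86 in OX (lines 6 and 12). SDI1 had no listed probe set, and the overexpression was not checked by gene name. Of 13 root cell type markers the annotation matched 4 to a probe set of a single listed gene. Their summed linear levels were 388 to 579 over the 10 arrays. Listed genes without such a match, here and below, may still have probe sets on the array. All 4 matched root markers were above background on all 10 arrays. PYK10, at log2 values of 8.50 to 9.12, dominated that sum. EXPA7 and EXPA18 were called higher in Col at -S than at +S, by 0.76 ± 0.14 (limma adjusted p = 0.011) and 0.77 ± 0.15 (0.015). EXPA7 stood at -0.64 ± 0.14 in KO against Col at -S (limma adjusted p = 0.051). Limma called no root marker in any other comparison. Of 8 shoot photosynthesis markers 3 were matched, none under background throughout. Their summed linear level was 17.6 to 19.6 in Col +S, 10.6 to 11.3 in Col -S, 14.8 to 15 in KO +S, 9.52 to 9.66 in KO -S and 14.4 to 16.5 in OX. The sum thus moved with sulfate and was lower in KO and OX than in Col at +S. Limma called all 3 lower at -S in Col and LHCB4.1 alone in KO, and none in KO or OX against Col. In OX against Col RCA stood at -0.90 ± 0.17, PSAE1 at -0.37 ± 0.18 and LHCB4.1 at -0.04 ± 0.11. The part of the root and shoot markers in the results below was not tested.

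**Figure D1:**
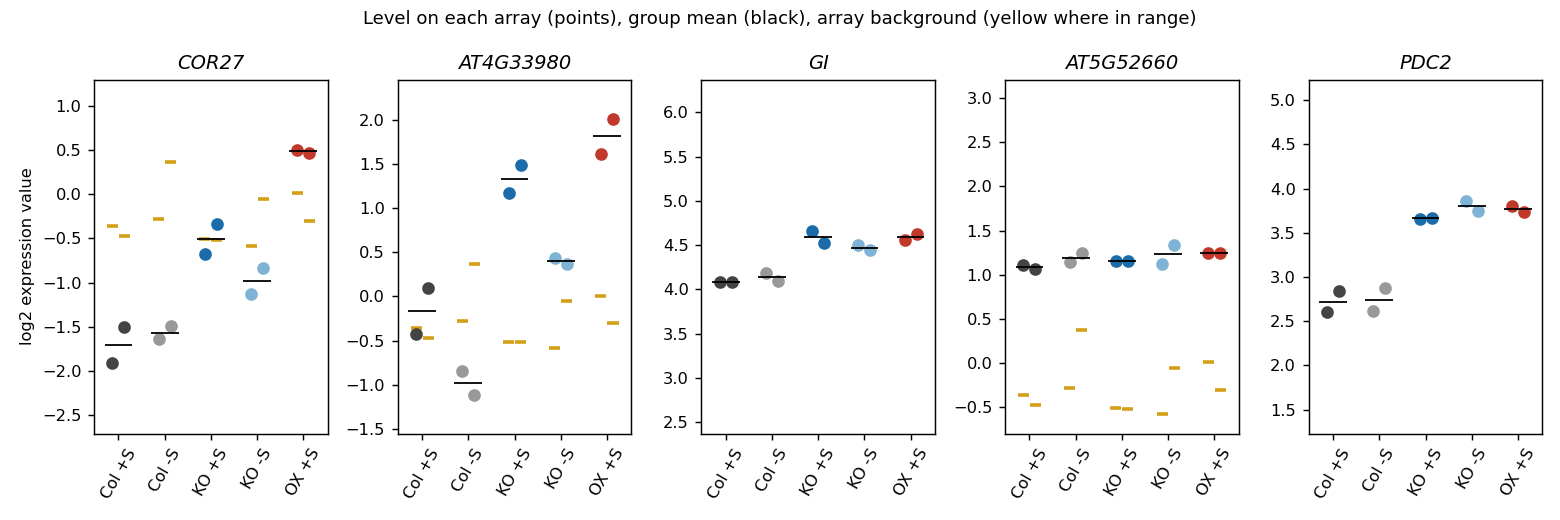
Log2 expression value of the 5 genes on each of the 10 arrays, 2 points a group, with the group mean as a black line and each array's background level as a yellow mark where it is in range. Each panel has its own vertical axis. COR27, AT4G33980, GI and PDC2 stand higher on the KO and OX arrays than on every Col array, and AT5G52660 stays between 1.07 and 1.34.

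COR27 was not above background in wild-type roots. It read -1.91 and -1.50 in Col +S and -1.64 and -1.49 in Col -S, all 4 under the background level of their arrays (-0.47 to 0.37). KO read -0.68 and -0.34 at +S and -1.13 and -0.83 at -S, with the +S array of line 4 alone above its background. OX read 0.50 and 0.47, and both arrays were above background. The order of the groups was thus OX, KO +S, KO -S, Col -S and Col +S. The 2 Col groups overlapped and no other neighbours did, although differences among values under background are not firm measurements.

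AT4G33980 had the same order among genotypes from a higher level. It read -0.43 and 0.10 in Col +S, where the second array was above background, and -0.84 and -1.11 in Col -S, where neither was. KO read 1.17 and 1.49 at +S and 0.43 and 0.37 at -S, and OX read 1.61 and 2.01, all above background. No pair of neighbouring groups overlapped, although the highest KO +S array lay only slightly under the lowest OX array. In KO it was lower at -S than at +S on arrays above background. Unlike COR27 it also read lower at -S in Col, but there neither -S array was above background.

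GI was well above background on all arrays and varied little within groups. It read 4.08 on both Col +S arrays and 4.18 and 4.09 in Col -S. KO read 4.66 and 4.52 at +S and 4.50 and 4.44 at -S, and OX read 4.56 and 4.63. The KO and OX arrays therefore formed an upper band from 4.44 to 4.66 and the Col arrays a lower one from 4.08 to 4.18. The SD within groups was 0.060 for GI, the 6.6th percentile of all probe sets, against 0.251 for AT4G33980 and 0.199 for COR27.

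PDC2 showed the widest empty gap between Col and the other arrays. It read 2.60 and 2.84 in Col +S and 2.62 and 2.87 in Col -S, so the sulfate groups of Col overlapped. KO read 3.66 and 3.67 at +S and 3.86 and 3.75 at -S, and OX read 3.80 and 3.74. The lowest of these 6 arrays stood 0.79 above the highest Col array. Neither the sulfate level nor the kind of SDI alteration separated the 6 from each other by as much.

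AT5G52660 was above background everywhere and nearly flat. It read 1.11 and 1.07 in Col +S, 1.14 and 1.25 in Col -S, 1.15 and 1.16 in KO +S, 1.12 and 1.34 in KO -S, and 1.25 on both OX arrays. The KO -S and Col -S arrays overlapped. For this gene the description as altered by SDI1 was not borne out by its values.

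The first comparison, OX against Col at full sulfate, asked what extra SDI1 does when sulfur is ample, and it was taken as the one that led to the choice of these genes. COR27 stood 2.19 ± 0.17 higher in OX, which is at least 1.87-fold because Col lay under background. This bound sets the OX mean against the mean, over the Col arrays, of the higher of the array's background and its own value. AT4G33980 stood 1.97 ± 0.21 higher, and its fold is approximate because 1 of the Col arrays lay under background. PDC2 stood 1.06 ± 0.12 higher (2.08-fold), GI 0.52 ± 0.10 (1.43-fold) and AT5G52660 0.16 ± 0.10.

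In this comparison 3 of the 5 were called higher at an adjusted p under 0.05 (COR27, AT4G33980 and PDC2), where 0.243% of all probe sets were. Without Col +S array 1 or without OX line 6, PDC2 was no longer called, at differences of 0.94 and 1.03. All 5 had both OX arrays above both Col arrays, as 21.7% of all probe sets did. Nothing is read from these counts and calls, given the choice of the genes. The median difference of the 5 was 1.06, and that of all probe sets was 0.03.

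**Figure D2:**
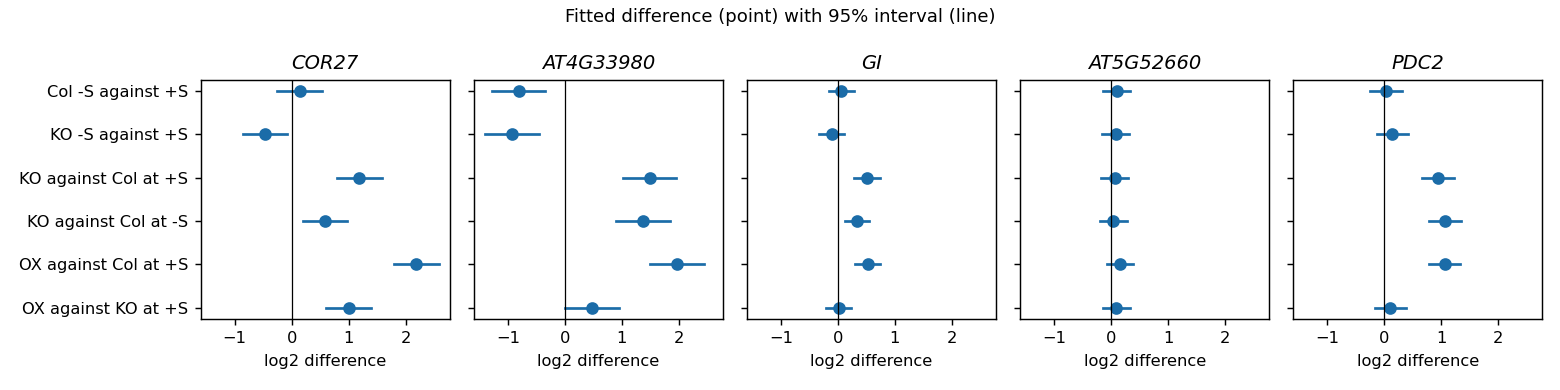
Fitted log2 difference (point) with its 95% interval (line) for each gene in 6 comparisons, named at the left as the first group against the second. The differences of KO and OX from Col lie to the right of 0 for COR27, AT4G33980, GI and PDC2, and all intervals of AT5G52660 span 0.

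The second comparison, KO against Col at full sulfate, asked whether loss of SDI1 and SDI2 alters roots that have enough sulfur. The 4 genes differed from Col in the same direction as in OX: AT4G33980 by 1.49 ± 0.21 (limma adjusted p = 0.088), COR27 by 1.19 ± 0.17 (limma adjusted p = 0.088), PDC2 by 0.95 ± 0.12 (limma adjusted p = 0.087) and GI by 0.51 ± 0.10 (limma adjusted p = 0.21). For COR27 no fold is given, since Col and the line 1 array lay under background. AT5G52660 stood at 0.06 ± 0.10. These values share the Col +S arrays with the comparison of OX and Col and are no separate evidence of it.

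No member was called by limma at +S, where 0.0225% of all probe sets, or 5, were. At an unadjusted p under 0.05 there were 4 of 5, against 5.56% of all probe sets. All 5 had both KO arrays above both Col arrays, as 17.3% of all probe sets did. Several other settings called some of them. With an intensity trend and robust variances, or with array weights, COR27, AT4G33980 and PDC2 were called. They were called too with only probe sets above background on 2 arrays (limma adjusted p = 0.013 to 0.046 over these settings). COR27 met that background filter only through the OX arrays and KO +S line 4, where it stood high, so its call there is no support. Without the dimmest probe sets, a fit that COR27 dropped out of, AT4G33980 and PDC2 were called (limma adjusted p = 0.032 and 0.03). GI was called with array weights (limma adjusted p = 0.049). None of the 10 fits that left out an array called any of the 5.

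KO against Col at low sulfate shares no array with the comparison of OX and Col at +S. PDC2 was higher in KO by 1.06 ± 0.12 (2.09-fold, limma adjusted p = 0.002). AT4G33980 was higher by 1.37 ± 0.21, at least 1.28-fold because Col -S lay under background (limma adjusted p = 0.0096). COR27 stood at 0.59 ± 0.17 (limma adjusted p = 0.12) with every array of both groups under background, so no fold is given. GI stood at 0.34 ± 0.10 (limma adjusted p = 0.11) and AT5G52660 at 0.04 ± 0.10 (limma adjusted p = 0.86).

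At -S, then, 2 of the 5 were called higher, where 1.73% of all probe sets were. Both KO arrays lay above both Col arrays for 4 of 5, as for 19.2% of all probe sets. PDC2 kept its call in all 10 fits that left out an array (limma adjusted p = 0.0036 to 0.024). AT4G33980 lost its call without Col -S array 2 (limma adjusted p = 0.079), without KO -S line 1 (0.068) or without KO -S line 4 (0.056). The median difference of the 5 was 0.59 and that of all probe sets -0.04.

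**Figure D3:**
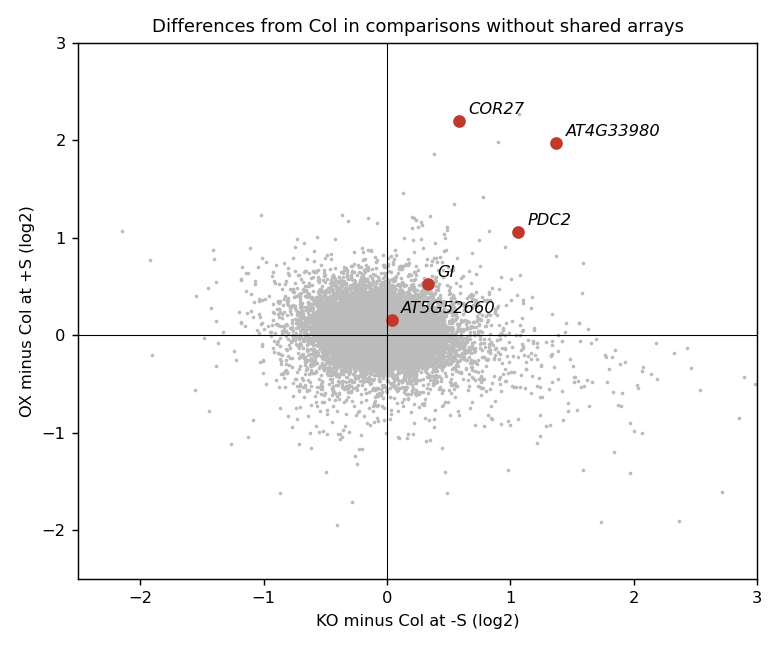
Log2 difference of KO from Col at low sulfate (horizontal) against that of OX from Col at full sulfate (vertical) for all tested probe sets (grey) and the 5 genes (red), in comparisons that use different arrays. AT4G33980 and PDC2 lie at the upper right edge of the cloud, COR27 at its upper edge, GI nearer its middle and AT5G52660 inside it. The horizontal difference of COR27 is between arrays that all lay under background. The plotted range leaves out 31 probe sets.

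Averaged over both sulfate levels, a contrast added after the data were seen, limma called 4 of the 5 genes higher in KO than in Col, where 1.27% of all probe sets were. The difference was 1.43 ± 0.15 for AT4G33980 (limma adjusted p = 0.0014), 1.01 ± 0.09 for PDC2 (limma adjusted p = 0.00044), 0.89 ± 0.12 for COR27 (limma adjusted p = 0.0075) and 0.42 ± 0.07 for GI (limma adjusted p = 0.017). For COR27 all 4 Col arrays and 3 of the 4 KO arrays lay under background, and for AT4G33980 3 of the 4 Col arrays did, so these 2 differences are not firm in size and no fold is given. This contrast includes the Col +S arrays that OX was compared with, so the count and its p-values are not free of the choice of the genes. AT5G52660 stood at 0.05 ± 0.07. The GI call was lost in 6 of the 10 fits that left out an array, namely without Col -S array 2 (limma adjusted p = 0.061), KO -S line 1 (0.069), KO -S line 4 (0.051), Col +S array 1 (0.081), Col +S array 2 (0.073) or KO +S line 1 (0.11).

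Array by array, all 6 KO and OX arrays lay above all 4 Col arrays for 4 of the 5 genes, as they did for 0.757% of all probe sets, or 168. The gap between the lowest of the 6 and the highest of the 4 was 0.79 for PDC2, 0.36 for COR27, 0.27 for AT4G33980 and 0.26 for GI. The gap of COR27 lay between values under background and is not a firm measurement. That of PDC2 was the widest among the 82 probe sets with a single listed gene that showed this pattern. This way of sorting the arrays was set up after their values were seen, and it is given as a description. By their labels KO and OX alter SDI1 in opposite directions, and the 4 genes stood on the same side of Col in both.

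OX and KO could be set against each other directly at +S, again as a description, since the OX arrays were taken to have led to the choice. COR27 stood 1.00 ± 0.17 higher in OX (95% interval 0.61 to 1.39) and AT4G33980 0.48 ± 0.21 (0.01 to 0.95). GI differed by 0.01 ± 0.10 (-0.21 to 0.23), AT5G52660 by 0.09 ± 0.10 (-0.14 to 0.33) and PDC2 by 0.11 ± 0.12 (-0.17 to 0.38). Limma called 0 of the 5, with 2 of the 5 at an unadjusted p under 0.05, against 0.383% and 8.99% of all probe sets. With a replicate block, for mutant line or for label number and line, COR27 passed the threshold. Nothing is read from that either, given the choice of the genes.

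The sulfate comparison within Col asked how wild-type roots respond when sulfate is short, which raises SDI2 in them. AT4G33980 stood 0.81 ± 0.21 lower at -S (limma adjusted p = 0.042). Both -S arrays lay under their background levels of -0.28 and 0.37, and so did 1 of the +S arrays. Those levels are above the +S values of -0.43 and 0.10, so a fall in Col is not firmly measured and no fold is given. AT4G33980 was the only 1 of the 5 called, where 9.44% of all probe sets were. The call was lost with a replicate block for mutant line (limma adjusted p = 0.062) or for label number and line (0.095), with only the arrays compared (0.096) and with array weights (0.084). It was also lost in 7 of the 10 fits that left out an array: without Col -S array 1 (0.058), Col -S array 2 (0.2), Col +S array 2 (0.22), either KO -S array (0.062) or either KO +S array (0.055). COR27 stood at 0.14 ± 0.17, GI at 0.06 ± 0.10, AT5G52660 at 0.10 ± 0.10 and PDC2 at 0.03 ± 0.12 (limma adjusted p = 0.63 to 0.92). For PDC2 the 95% interval of this difference was -0.25 to 0.31, beside 0.78 to 1.33 for OX against Col, which shares the Col +S arrays. For COR27 the intervals were -0.25 to 0.53 and 1.80 to 2.58. Its Col arrays all lay under background, so the first cannot show whether low sulfate moved it, and the second is not firm in size.

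In KO, AT4G33980 fell at low sulfate by 0.93 ± 0.21, or 1.90-fold (limma adjusted p = 0.031), from a level above background in both groups. It was again the only 1 of the 5 called lower, where 3.50% of all probe sets were. The call was lost without each of the 4 KO arrays in turn (limma adjusted p = 0.11 without -S line 1, 0.17 without -S line 4, 0.075 without +S line 1 and 0.19 without +S line 4). COR27 stood at -0.47 ± 0.17 (limma adjusted p = 0.18), with both -S arrays under background. GI stood at -0.11 ± 0.10, AT5G52660 at 0.08 ± 0.10 and PDC2 at 0.14 ± 0.12 (limma adjusted p = 0.63 to 0.79).

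The interaction of genotype and sulfate asks whether KO and Col differ in their response to low sulfate. The response of KO minus that of Col was -0.61 ± 0.24 for COR27 (limma adjusted p = 0.46), -0.12 ± 0.29 for AT4G33980 (0.94), -0.17 ± 0.14 for GI (0.74), -0.02 ± 0.15 for AT5G52660 (0.98) and 0.11 ± 0.17 for PDC2 (0.90). Limma called 0 of the 5, and 1 (COR27) had an unadjusted p under 0.05, against 0.748% and 9.85% of all probe sets. Except for KO +S line 4, every Col and KO array of COR27 lay under background, so its interaction is not a firm measurement. The 95% intervals still allowed sizeable differences, for example -0.78 to 0.55 for AT4G33980.

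Other genes of the clock, the cold response and fermentation were covered thinly by the annotation. The counts below are of genes that it matched to a probe set of a single listed gene. Unmatched genes were not read, whether or not the array holds probe sets for them. Of 29 further clock genes 1 was matched, AT4G01280, and it stood at 0.17 ± 0.12 in OX and -0.10 ± 0.12 in KO at +S against Col. Limma called it in no comparison, and its unadjusted p was under 0.05 in OX against KO alone. Of 28 further cold-response genes 5 were matched and limma called 0 of them in any comparison. COR15A and COR15B, classic cold-induced genes of chloroplast-protecting proteins, lay at -2.13 to -1.55 and -1.16 to -0.49, under background on all arrays. The dehydrin genes COR47 and LTI30 were strongly expressed, and COR47 stood at 0.15 ± 0.11 in OX and 0.14 ± 0.11 in KO at +S.

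LTI30 stood at 0.35 ± 0.22 in OX and 0.65 ± 0.22 in KO at +S (limma adjusted p = 0.7 in KO). ZAT10, a stress-induced zinc finger repressor, varied within groups, at 3.32 and 4.71 in Col +S. At an unadjusted p under 0.05 were COR47, higher in Col at low sulfate, and LTI30, higher in KO at +S and averaged over sulfate. ZAT10 was too, but lower, at -0.92 ± 0.40 in KO against Col at -S and -1.49 ± 0.57 in the interaction. The median of the 5 cold genes was 0.16 in OX against Col and 0.14 in KO against Col at +S, beside 0.03 and -0.02 for all probe sets. In KO against Col it was -0.13 at -S and -0.11 averaged over sulfate, beside -0.04 and -0.03. All but the median in KO at +S were the value of COR15A, which lay under background.

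Of 21 further fermentation and low-oxygen genes 2 were matched, and limma called neither in any comparison. AT4G17260 stood at 0.34 ± 0.10 in OX against Col (limma adjusted p = 0.25), and AT3G10040, under background on nearly all arrays, at 0.34 ± 0.15 in KO against Col at -S (limma adjusted p = 0.26). These and the average of KO over sulfate for AT3G10040 were the cases with an unadjusted p under 0.05. Of 20 light and photoperiod genes 1 was matched, AT1G69570. It stood at -0.35 ± 0.13 in OX and -0.37 ± 0.13 in KO at +S (limma adjusted p = 0.41 and 0.71). Its unadjusted p was under 0.05 in both, in KO against Col at -S and averaged over sulfate (limma adjusted p = 0.1 in the average). All OX and KO +S arrays of AT1G69570 lay under background, so these differences are not firm in size. Whether PDC2 moved with the other fermentation genes, or GI with the core of the clock, could therefore not be read from more than these few probe sets.

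Across the 10 arrays COR27 and AT4G33980 correlated at Pearson r = 0.91 (Spearman rho = 0.89), GI and PDC2 at 0.92 (0.60), AT4G33980 and GI at 0.87 (0.82), COR27 and GI at 0.83 (0.84), AT4G33980 and PDC2 at 0.81 (0.66) and COR27 and PDC2 at 0.79 (0.75). AT5G52660 correlated with them at 0.23 to 0.50. These values describe arrays that fall into separate Col and other clusters and are given with no test.

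Among 451 other single-gene probe sets whose group means spanned at least 1 log2 unit and that were above background on at least 2 arrays, AT1G56300 was the most like COR27 (r = 0.91), GI (r = 0.97) and PDC2 (r = 0.90). It read 0.95 and 1.26 in Col +S, 1.30 and 1.23 in Col -S, 2.07 and 2.02 in KO +S, 1.84 and 1.66 in KO -S, and 2.08 and 2.3 in OX. No Col array of it reached the lowest of the other 6. Without the OX arrays it remained first for COR27 and GI (r = 0.93 and 0.96), and for PDC2 it came second (r = 0.90) to AT2G23910 (r = 0.95). By Spearman correlation it was first for COR27 and GI and 12th for PDC2 (rho = 0.68).

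For COR27 the next most similar were THIC, which encodes an enzyme of thiamine synthesis (r = 0.88), and AT1G11210 (r = 0.83). THIC fell to rank 17 without the OX arrays (r = 0.60). For AT4G33980 they were AT4G32340 (r = 0.95), AT1G11210 (r = 0.92) and WNK9, a protein kinase gene (r = 0.91). All of these had lower group means at -S than at +S in Col and KO, as AT4G33980 did. They were picked for their likeness to it over the same arrays, so the shared pattern is a description only. AT4G32340, for example, had means of -0.60 and -1.11 in Col and 0.14 and -0.70 in KO. Its Col and KO -S arrays all lay under background, and it met the background filter only through the KO +S and OX arrays.

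For GI, AT1G68500 (r = 0.88) and the linker histone gene HIS1-3 (r = 0.85) followed AT1G56300. For PDC2, HIS1-3 (r = 0.84) and AT2G23910 (r = 0.83) did. HIS1-3 had group means of 0.17 and -0.02 in Col at +S and -S, 0.66 in both KO groups and 1.01 in OX. For AT5G52660 the nearest were EXLA2, an expansin-like gene (r = 0.80), AT5G47980 (r = 0.74) and AT5G66590 (r = 0.73), over a range of AT5G52660 itself of only 0.27.

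**Figure D4:**
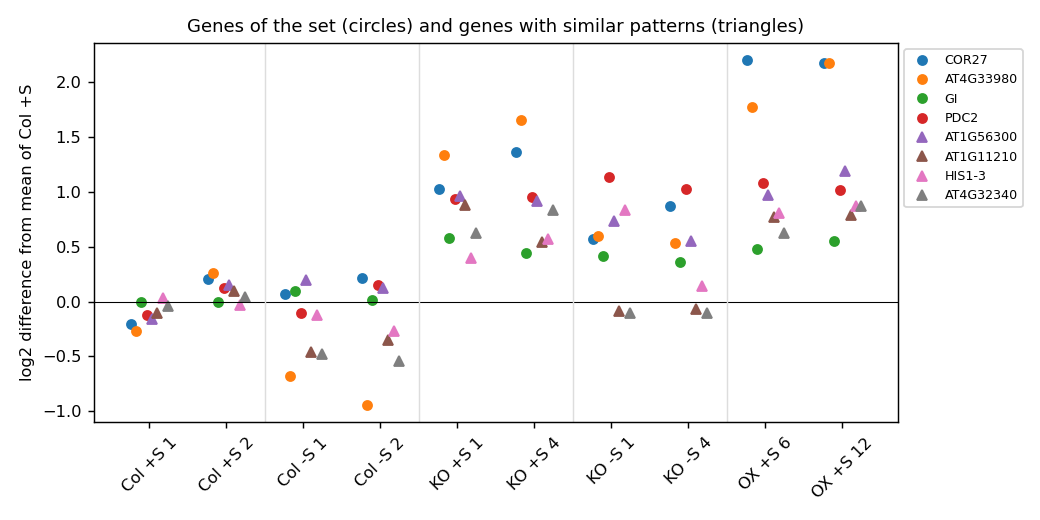
Log2 difference of each array from the mean of the 2 Col +S arrays, for COR27, AT4G33980, GI and PDC2 (circles) and for 4 of the genes with similar patterns (triangles), by array. All 4 circles are above 0 on the KO and OX arrays, as AT1G56300 is, and AT4G33980 is below 0 in Col -S.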

How the data were processed

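The deposited values are on a log10 scale, 1 per probe set of the ATH1 array and sample, as the authors made them from the scans. How they corrected background, summarized probes and normalized arrays is not given in the sources. The log base was read from spiked bacterial controls, which spanned 2.13 units against 1.82 expected for log10, 6.06 for log2 and 4.20 for natural logs. Folds of bright probe sets may therefore be somewhat overstated, and the zero point is unknown. Values were multiplied by 3.32 to give log2 values, with no pseudocount.

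Of 22810 probe sets, 554 had no value and 64 were controls (5 of them both), which left 22197. Genes were named from the platform annotation (13513 probe sets with a single gene), with symbols updated by Entrez ID from RefSeq TAIR10.1 for 13436. Arrays were grouped by title. A mean per group was fitted over all 10 arrays with limma 3.58.1 in R 4.3.3 (5 residual and 3.81 prior degrees of freedom), with a threshold of 0.05, and checked on simulated data. Background was the 0.95 quantile of 22 Bacillus control probe sets per array, from -0.58 to 0.37 on the log2 scale.

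The 5 genes and the lists of related genes were chosen with earlier results of these data known. Named genes were the 5, the listed related genes, SDI2, and for each of the 5 the 3 probe sets of highest Pearson correlation under the limits in the text. KO arrays at +S and -S are paired by plant line. Deviations of same-line arrays from their group means had a correlation of 0.07. Col arrays share a number only (-0.14). Alternatives covered normalization, filters, variance model, array weights, arrays fitted, blocks and leaving out each array. The promoter motif search was not run, since no promoter sequences were used here.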

Additional observations from a re-analysis of the deposited data

How the results depend on the processing

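Each difference of the 5 genes was recomputed under 10 settings and in 10 fits that left out an array. COR27 dropped out of the fit without the dimmest probe sets. Direction changed only for differences not called in either fit: GI in OX against KO was -0.01 after median centring, and ranges over the fits that left out an array spanned 0 for GI there (-0.06 to 0.08), for COR27 (-0.07 to 0.34) and PDC2 (-0.10 to 0.15) in Col at low sulfate, for AT5G52660 in KO at low sulfate (-0.03 to 0.19), in KO against Col at -S (-0.07 to 0.15) and on average (0 to 0.11), and in the interaction for AT4G33980 (-0.38 to 0.15), AT5G52660 (-0.13 to 0.09) and PDC2 (-0.01 to 0.24). Taken as log2 in place of log10, the deposited values give smaller folds. The calls stay the same by construction, since every value changes by the same factor.

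The block for label number and line ended the calls of AT4G33980 in Col (limma adjusted p = 0.095) and KO (0.08) at low sulfate and of GI in KO averaged over sulfate (0.062). The block for mutant line changed no call beyond those given in the text. GI in OX against Col passed the threshold with quantile normalization, without the dimmest probe sets, with intensity trend and above background on 2 arrays. COR27 in OX against KO passed it with the trend and above background, a filter it met only through OX and KO +S line 4. Both comparisons use the OX arrays taken to have led to the choice, so nothing is read from these passes.

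Counts over all probe sets moved more. With only the arrays compared they were 986 in Col at low sulfate, 180 in KO against Col at -S, 71 in OX against Col and 43 in OX against KO. With the block for label number and line they were 342, 75 and 53 in the last 3, 106 in the interaction and 242 in KO averaged. KO against Col at +S had 8 calls with quantile normalization, 23 without the dimmest probe sets, 31 with the trend and 69 with array weights, and at -S 351 with array weights. The trend gave 260 in OX against Col, 137 in OX against KO and 251 in the interaction, and the fit without the dimmest probe sets gave 267 in OX against Col. Above background on 2 arrays, a setting added after the data were seen, KO against Col had 35 calls at +S, 1025 at -S and 721 averaged, OX 295 against Col and 151 against KO, and the interaction 264. Leaving out 1 array gave 897 to 2077 in Col and 564 to 1457 in KO at low sulfate, 4 to 59 and 252 to 777 in KO against Col at +S and -S, 36 to 131 in OX against Col, 41 to 120 in OX against KO, 84 to 205 in the interaction and 191 to 437 in KO averaged. The 3 most similar genes shared 1 or 2 with those by Spearman correlation or without OX arrays. The cause of these shifts was not tested.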

Other observations

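Besides the 168 probe sets with all 6 KO and OX arrays above all 4 Col arrays, 188 had all 6 below. This sorting was made after the values were seen, and the genes named here were chosen by the size of the gap. Of the 82 upper probe sets with a single listed gene, the larger gaps outside the 5 genes, among those above background on all 6 arrays, were those of AT1G56300 (0.35) and of XTH20, a gene of a cell wall xyloglucan enzyme (0.32). XTH20 read 2.35 to 2.46 in Col and 2.78 to 3.31 elsewhere. Of the 99 lower ones, EXPB3, a beta-expansin gene, had the widest gap (0.43), with 6.34 to 6.76 in Col and 5.12 to 5.91 in KO and OX. AT4G15430 (0.37), the terpene synthase gene TPS-CIN (0.35) and AT2G41810 (0.32) followed.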
